A study of Mus musculus with 6 samples.

Results

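The core circadian clock genes were followed in mouse liver: Arntl, Clock and Npas2 as the activator arm, and Per1, Per2, Per3, Cry1, Cry2, Nr1d1 and Nr1d2 as the repressor arm. They were chosen by gene symbol, and all 10 were found among the 22851 genes of the deposited matrix of FPKM values (sequenced reads or fragments set relative to transcript length and library size). The livers came from male mice of the inbred strain C57BL/6J all of which ate a high-fat diet. Treated mice received ONX-0914, an inhibitor of the immunoproteasome subunit PSMB8, at 10 mg/kg under the skin every other day for 6 weeks (libraries ONX-0914 1, 3 and 4), and the control mice received vehicle (libraries vehicle 1, 2 and 4). The study had no group without the diet. The design text gives 2 animals per group but there are 3 libraries per group, and it is not stated which come from separate animals, so p-values measure only the spread between these libraries. The hour at which the livers were taken was not given in the sources used here, so hour of collection and treatment cannot be told apart for any gene below.

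The clock is a transcriptional feedback loop that runs in nearly every cell. BMAL1, the product of Arntl, pairs with CLOCK or its relative NPAS2 and switches on the Per, Cry and Nr1d genes through E-box sequences, and the PER and CRY proteins then block the pair. In a second loop REV-ERBα and REV-ERBβ, the products of Nr1d1 and Nr1d2, repress Arntl at sites called ROREs, where the ROR receptors activate it, so that in mouse liver Arntl and Nr1d1 normally peak at opposite times of day.

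Promoter sequences of RefSeq (build GRCm38.p6, from 250 bases before to 50 bases after each annotated start, some genes with several starts) were found for 9 of the 10 genes, in 13 windows. Per2 had no entry. Both strands were searched for the E-box CACGTG, its variant CACGTT, the D-box TTATGTAA and the RORE. The E-box was found in Per1 and Cry1, the variant in Cry1, Cry2 and Nr1d1, the D-box at 2 places in Per3, and the RORE in 1 of the Arntl windows. No motif found overlapped another. Of all 32851 promoter windows, 7.15% held the E-box, 4.69% the variant, 0.938% the D-box and 0.384% the RORE. A match is a description of the letters and not a binding site. The sequences of both ends of the REV-ERB loop and of 3 E-box or D-box genes follow, 5′ to 3′ in the gene's direction, with the motif in capitals. The variant reads AACGTG where it lies on the other strand.
Arntl, chr7:113207261-113207560, plus strand: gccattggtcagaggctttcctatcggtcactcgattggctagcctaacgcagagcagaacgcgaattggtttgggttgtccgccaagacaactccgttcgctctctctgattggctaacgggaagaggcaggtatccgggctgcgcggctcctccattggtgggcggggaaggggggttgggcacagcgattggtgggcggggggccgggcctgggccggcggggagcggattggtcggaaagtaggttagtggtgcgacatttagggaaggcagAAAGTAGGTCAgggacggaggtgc
Nr1d1, chr11:98775328-98775627, minus strand: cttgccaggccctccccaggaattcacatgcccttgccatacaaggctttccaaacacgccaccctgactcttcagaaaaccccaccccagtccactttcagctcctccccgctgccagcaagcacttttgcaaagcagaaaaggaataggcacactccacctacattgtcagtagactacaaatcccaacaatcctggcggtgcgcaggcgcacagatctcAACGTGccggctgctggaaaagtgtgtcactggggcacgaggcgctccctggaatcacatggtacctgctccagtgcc
Per1, chr11:69098699-69098998, plus strand: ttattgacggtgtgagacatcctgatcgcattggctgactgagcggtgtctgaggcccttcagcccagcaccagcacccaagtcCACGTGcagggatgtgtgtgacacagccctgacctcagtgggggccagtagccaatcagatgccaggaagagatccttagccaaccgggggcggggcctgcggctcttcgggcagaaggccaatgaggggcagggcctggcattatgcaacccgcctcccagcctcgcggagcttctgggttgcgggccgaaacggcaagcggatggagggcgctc
Cry1, chr10:85185005-85185304, minus strand: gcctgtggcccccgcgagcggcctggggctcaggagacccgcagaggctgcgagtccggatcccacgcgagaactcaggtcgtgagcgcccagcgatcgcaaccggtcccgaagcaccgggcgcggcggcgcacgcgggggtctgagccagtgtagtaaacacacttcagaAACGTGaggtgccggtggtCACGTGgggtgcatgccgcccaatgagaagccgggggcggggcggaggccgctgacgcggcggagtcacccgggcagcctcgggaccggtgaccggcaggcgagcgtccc
Per3, chr4:151044616-151044915, minus strand: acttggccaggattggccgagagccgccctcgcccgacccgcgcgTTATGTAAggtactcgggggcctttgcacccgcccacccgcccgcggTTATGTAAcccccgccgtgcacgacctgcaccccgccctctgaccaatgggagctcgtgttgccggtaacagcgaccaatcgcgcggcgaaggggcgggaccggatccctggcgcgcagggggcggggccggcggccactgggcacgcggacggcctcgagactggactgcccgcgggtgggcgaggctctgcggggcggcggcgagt
The RORE of Arntl began 26 bases downstream of the annotated start and the E-box variant of Nr1d1 28 bases upstream. The E-boxes began 166 bases upstream in Per1 and 60 in Cry1, with the variant of Cry1 79 bases upstream, and the D-boxes of Per3 began 205 and 158 bases upstream.

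The libraries as a whole bear on every value. FPKM sums were 1041391 to 1247789 in the treated and 993264 to 1074027 in the vehicle libraries. Read totals were not given, but low values put the depth of ONX-0914 1, 3 and 4 at 1.02, 0.865 and 0.908 times that of vehicle 1, and the depth of vehicle 2 and 4 at 1.29 and 1.13 times. Testing the 10743 genes that exceeded 1 FPKM in 3 or more libraries, limma (log2(FPKM + 1), Benjamini-Hochberg adjusted p under 0.05) called 4673 lower and 275 higher with ONX-0914, and the median log2 fold change was -0.64. Values also appear after median-ratio scaling (a library's factor being its median ratio to the gene-wise geometric mean over tested genes, so that the median change is -0.012) and after length correction, in which each library's trend over transcript length was removed. That trend was marked in 2 libraries: the longest 25% of transcripts lay below the shortest 25% by a log2 difference of -0.93 and -0.99 in ONX-0914 1 and 4, against -0.25 in ONX-0914 3 and -0.032 to 0.039 in vehicle. ONX-0914 3 also stood apart on the first principal component (77.3% of the variance), at 10.6, against 73.95 and 67.81 in ONX-0914 1 and 4 and -56.07 to -47.2 in vehicle. Hepatocyte markers summed to 54220 to 84150 FPKM with ONX-0914 and 78140 to 84130 with vehicle, mostly from Alb, Ttr and Apoa1. As deposited, 3 of the 7 were called lower and 1, Apoa1, higher. Hnf4a, among those lower, was at 6.26, 40.7 and 5.94 FPKM in treated libraries 1, 3 and 4. In vehicle 1, 2 and 4 it was at 58.5, 51.7 and 68.6 FPKM.

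As deposited, 4 of the 9 clock genes that passed the filter on low values were called lower with ONX-0914 and none was called higher. These were Arntl, Clock, Cry1 and Cry2. They are 44.4% of the 9, close to the 43.5% of all genes tested that were called lower, while 2.56% of all genes were called higher. At an unadjusted p under 0.05 there were 5. After median-ratio scaling no clock gene was called in either direction (background 14.2% lower and 13.8% higher), with 2 at an unadjusted p under 0.05. After length correction none was called either (background 11.6% lower and 9.61% higher), with 3 at an unadjusted p under 0.05. The count of 4 is thus a share near the background and is not a result about the clock. In whole tissue, fewer cells of a type and less RNA per cell cannot be told apart.

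**Figure D1:**
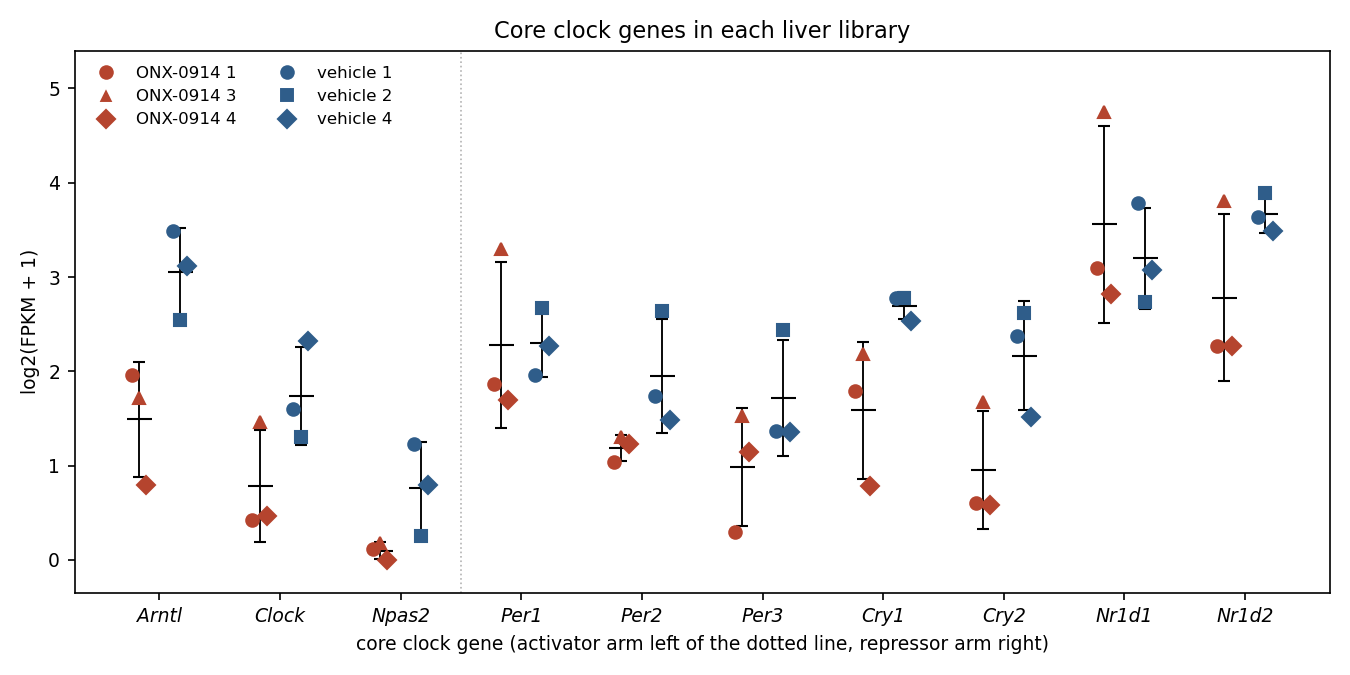
Level of each core clock gene in each library as log2(FPKM + 1), with ONX-0914 libraries in red on the left and vehicle libraries in blue on the right of each gene. Points are libraries and black bars the mean and SD of 3. The ONX-0914 points lie below all vehicle points for Arntl, Npas2, Per2 and Cry1, and ONX-0914 3 (triangle) is the highest point of all for Per1 and Nr1d1.

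Arntl, on chromosome 7 from 113207465 to 113314126 (plus strand; here and below GENCODE M21, GRCm38), had the lowest fold change of the clock genes tested in all 3 scalings and fell as deposited. It was at 2.88, 2.29 and 0.74 FPKM in treated libraries 1, 3 and 4, against 10.2, 4.83 and 7.68 FPKM in vehicle 1, 2 and 4. Every treated library was below every vehicle library, as it was for 53.5% of all genes tested (4.93% were higher without overlap). Of the 10 clock genes 4 were lower in this way, 3 of them among the 9 tested, and none was higher. The log2 fold change was -1.56 (limma, SE 0.37, adjusted p = 0.00998). Arntl passed with any 1 of the 6 libraries left out (adjusted p from 0.00503 to 0.0474) and in ONX-0914 3 alone against vehicle (-1.33, adjusted p = 0.0271). It did not pass after median-ratio scaling (-0.96, adjusted p = 0.0755), where ONX-0914 1 at 4.13 lay above vehicle 2 at 3.62, nor after length correction (-0.82, adjusted p = 0.109).

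Clock, on chromosome 5 from 76209868 to 76304792 (minus strand), encodes the partner of BMAL1. Its longest coding transcript, at 9744 bases, was longer than that of 98.4% of tested genes. Clock was at 0.34, 1.76 and 0.38 FPKM in treated libraries 1, 3 and 4, against 2.03, 1.47 and 3.98 FPKM in vehicle 1, 2 and 4. The low libraries were ONX-0914 1 and 4, while ONX-0914 3 lay within the vehicle range. Its log2 change of -0.96 (limma, SE 0.35, adjusted p = 0.049) was lost with any library other than ONX-0914 3 left out (adjusted p from 0.0506 to 0.165). It was also lost with a pseudocount of 0.1 or 0.5, a filter on the mean, no filter or limma without a trend (adjusted p from 0.0512 to 0.0926). After length correction it was -0.14 (adjusted p = 0.742).

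Npas2, on chromosome 1 from 39193731 to 39363236 (plus strand), encodes the CLOCK relative and was too low to enter the test. Treated libraries 1 and 3 had 0.08 and 0.13 FPKM and treated library 4 was listed at 0, against 1.35, 0.19 and 0.73 FPKM in vehicle 1, 2 and 4. The groups did not overlap, but vehicle 2 lay near the treated values, and the exact two-sided permutation p of 0.1 is the smallest that 3 libraries against 3 allow. In a fit with no filter on low values it did not pass (log2 fold change -0.66, limma adjusted p = 0.0612).

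In the repressor arm the cryptochromes fell as deposited, and neither the period genes nor the Nr1d genes passed over all 6 libraries. Cry1, on chromosome 10 from 85131700 to 85185064, and Cry2, on chromosome 2 from 92403646 to 92434043 (both minus strand), encode the proteins that block CLOCK and BMAL1. Cry1 was at 2.45, 3.55 and 0.72 FPKM in treated libraries 1, 3 and 4, against 5.87, 5.87 and 4.77 FPKM in vehicle 1, 2 and 4. The groups did not overlap, and they did not overlap after scaling by median ratio either (3.51, 3.69 and 1.07 with ONX-0914, against 4.2, 4.4 and 3.74 with vehicle), as for 24.1% of all genes (23.9% were higher without overlap). The log2 fold change of Cry1 was -1.11 as deposited (limma, SE 0.36, adjusted p = 0.0313) and -0.53 after median-ratio scaling (adjusted p = 0.236). Cry2 was at 0.52, 2.19 and 0.50 FPKM in treated libraries 1, 3 and 4, against 4.18, 5.12 and 1.85 FPKM in vehicle 1, 2 and 4. ONX-0914 3 was above vehicle 4, so the groups overlapped. Its log2 fold change was -1.21 (limma, SE 0.38, adjusted p = 0.0282), and -0.75 after median-ratio scaling (adjusted p = 0.123). After length correction Cry1 and Cry2 were at -0.36 and -0.35 (limma adjusted p = 0.366 and 0.413). The call of Cry1 was lost with any library other than ONX-0914 3 left out (adjusted p from 0.0567 to 0.0972), and that of Cry2 without vehicle 1, vehicle 2, ONX-0914 1 or ONX-0914 4 (adjusted p from 0.0912 to 0.104).

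The 3 period genes encode the partners of the cryptochromes, and Per1 is also induced acutely by glucocorticoids and feeding signals. Per1, on chromosome 11 from 69095217 to 69109960 (plus strand), was at 2.64, 8.82 and 2.23 FPKM in treated libraries 1, 3 and 4, against 2.89, 5.35 and 3.80 FPKM in vehicle 1, 2 and 4. The treated values lay on both sides of the vehicle range, with ONX-0914 3 above and the other 2 below it. Its log2 fold change was -0.013 (limma adjusted p = 0.982), 0.59 after median-ratio scaling (adjusted p = 0.228) and 0.89 after length correction (adjusted p = 0.0715). After length correction all treated libraries (log2 levels 2.94, 3.80 and 2.82) lay above all vehicle libraries (1.90, 2.67 and 2.31). Per1 was the 1 clock gene of the 9 tested to do so, beside 21.9% of all genes, and none lay wholly below, beside 21.7%.

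Per2, on chromosome 1 from 91415982 to 91459324 (minus strand), was at 1.05, 1.46 and 1.35 FPKM in treated libraries 1, 3 and 4, against 2.33, 5.22 and 1.80 FPKM in vehicle 1, 2 and 4. The groups did not overlap, though the gap between ONX-0914 3 and vehicle 4 was small and vehicle 2 stood out as high. The log2 fold change was -0.76 (limma, SE 0.31, adjusted p = 0.0682) and -0.24 after median-ratio scaling. Per3, on chromosome 4 from 151003652 to 151044665 (minus strand), was at 0.23, 1.87 and 1.21 FPKM in treated libraries 1, 3 and 4, against 1.57, 4.40 and 1.56 FPKM in vehicle 1, 2 and 4. Vehicle 2 was again high, and ONX-0914 3 lay above vehicle 1 and 4 (log2 fold change -0.73, limma, SE 0.38, adjusted p = 0.143). After length correction Per2 and Per3 were at 0.16 and 0.19.

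Nr1d1, on chromosome 11 from 98767932 to 98775333 (minus strand), was at 7.57, 25.9 and 6.08 FPKM in treated libraries 1, 3 and 4, against 12.8, 5.64 and 7.43 FPKM in vehicle 1, 2 and 4. ONX-0914 3 was at 3.01 times the vehicle mean, and the other treated libraries lay within the vehicle range. The log2 fold change was 0.36 (limma, SE 0.50, adjusted p = 0.561), and it was -0.24 without ONX-0914 3 (adjusted p = 0.511). After median-ratio scaling it was 1.07 (adjusted p = 0.082). Nr1d1 shares 1075 bases with Thra on the opposite strand, and it is not stated whether counting used strand. Thra itself stood at 3.97, 4.77 and 2.60 FPKM in treated libraries 1, 3 and 4. In vehicle 1, 2 and 4 Thra stood at 5.99, 5.56 and 5.00 FPKM. The spans of Arntl, Npas2 and Cry2 also overlap opposite-strand genes, by 2394 bases (Gm45355), 283 bases (Gm20428) and 23417 bases (D930015M05Rik). These opposite-strand genes had no values in the matrix. Nr1d2, on chromosome 14 from 18204054 to 18239127 (minus strand), was at 3.83, 13.0 and 3.80 FPKM in treated libraries 1, 3 and 4, against 11.5, 13.9 and 10.2 FPKM in vehicle 1, 2 and 4. ONX-0914 3 was inside the vehicle range and the other 2 were well below it. Over all libraries Nr1d2 did not pass (-0.89, limma, SE 0.41, adjusted p = 0.101). Without ONX-0914 3 it did (-1.40, adjusted p = 0.000482), in a fit where 60.6% of all genes were called lower.

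For Clock, Per1, Cry2, Nr1d1 and Nr1d2 the FPKM value of ONX-0914 3 was well above those of ONX-0914 1 and 4, while for Arntl it lay between them. Over tested genes in general ONX-0914 3 also lay higher, with a median-ratio factor of 0.962 against 0.698 and 0.670 in ONX-0914 1 and 4. The share of all genes with this pattern was not counted, so the pattern is not given as a trait of the clock genes. Set alone against vehicle, where the vehicle libraries alone supply the spread and a single treated library is taken to be as variable, ONX-0914 3 had Nr1d1 higher (log2 fold change 1.56, limma adjusted p = 0.0202) and Per1 higher (0.999, adjusted p = 0.0394). Arntl was lower there, as above, and the 6 others did not pass. In that fit 2.88% of all genes were called higher and 27.9% lower. With ONX-0914 1 and 4 against vehicle, 6 of the 9 were called lower (Arntl, Clock, Cry1, Cry2, Nr1d2 and Per3), beside 60.6% of all genes, and none was called higher (6.89%).

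**Figure D2:**
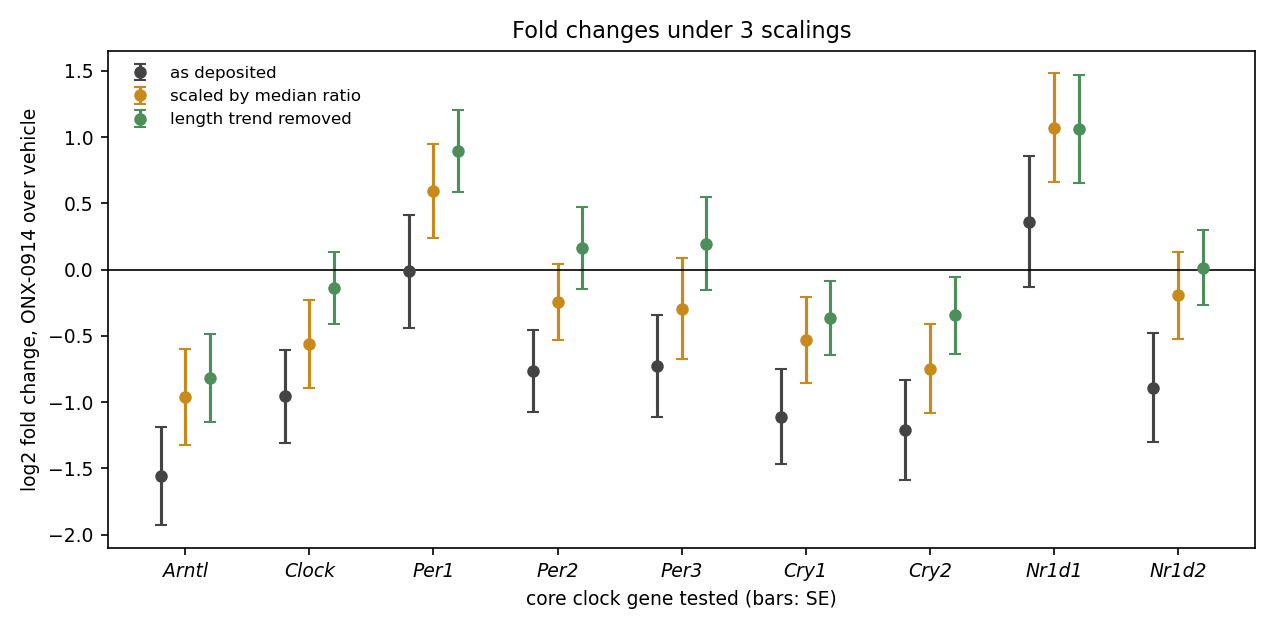
Log2 fold change of ONX-0914 over vehicle for the 9 core clock genes tested, on log2(FPKM + 1), as deposited, after median-ratio scaling and after length correction. Points are estimates over 3 libraries each and bars are the SE. Arntl is lowest and Nr1d1 highest in all 3, and scaling moves each gene up, so that Per2, Per3 and Nr1d2 are near 0 after length correction.

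The arms were also set against each other within libraries. A factor that scales a whole library cancels in a ratio of 2 FPKM values, but not once 1 is added to each value, as in the log2 values below. The level of Arntl over that of Nr1d1, both in FPKM, was 0.380, 0.0883 and 0.122 in treated libraries 1, 3 and 4, against 0.800, 0.856 and 1.03 in vehicle 1, 2 and 4. In vehicle livers the levels of both genes were close to each other in each library, although they differed between libraries. In treated livers Arntl was the lower one throughout. Nr1d1 was highest in ONX-0914 3, and Arntl was lowest in ONX-0914 4. On the log2(FPKM + 1) scale the ratio averaged -2.07 ± 0.95 with ONX-0914 and -0.15 ± 0.17 with vehicle (SD, n = 3 each), a difference of -1.92. The longest coding transcripts of Arntl and Nr1d1 have 2976 and 2721 bases.

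The separation was common in these libraries: 39.9% of all tested genes had a ratio to Nr1d1 that was lower in every treated than in every vehicle library, and Arntl had such a ratio to 40.1% of all tested genes. Clock over Per1 was 0.129, 0.200 and 0.170 in treated libraries 1, 3 and 4, against 0.702, 0.275 and 1.05 in vehicle 1, 2 and 4. Although these FPKM ratios do not overlap, with 1 added to each value vehicle 2 (-1.36) falls below ONX-0914 4 (-1.23). A ratio of any tested gene to Per1 that was lower without overlap was found for 33.6% of genes. Arntl over Per2 was 2.74, 1.57 and 0.548 in treated libraries 1, 3 and 4, against 4.38, 0.925 and 4.27 in vehicle 1, 2 and 4. Vehicle 2 lay between the treated libraries there, and 4.08% of tested genes had a ratio to Per2 that was lower without overlap. Npas2 relative to Nr1d1 did not overlap on the log2 scale (-2.99, -4.58 and -2.82 with ONX-0914, against -2.55, -2.48 and -2.29 with vehicle). In the treated libraries Npas2 was near 0 (at most 0.13 FPKM), so that ratio follows Nr1d1 there. In vehicle 1, 2 and 4 Npas2 was at 1.35, 0.19 and 0.73 FPKM, so the ratio also depends on Npas2.

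Averaged over all members of each arm, the activators were at 0.83, 1.12 and 0.42 (mean log2(FPKM + 1)) in treated libraries 1, 3 and 4, against 2.11, 1.37 and 2.08 in vehicle 1, 2 and 4, without overlap. The repressors were at 1.57, 2.65 and 1.503 in treated libraries 1, 3 and 4, against 2.52, 2.82 and 2.24 in vehicle 1, 2 and 4, with ONX-0914 3 inside the vehicle range. The activator mean minus the repressor mean was -0.74, -1.53 and -1.08 in treated libraries 1, 3 and 4, against -0.41, -1.46 and -0.17 in vehicle 1, 2 and 4. Vehicle 2 was within the treated range, and the difference between the groups of -0.44 was smaller than the pooled SD of 0.56. The difference was -1.03 with a pseudocount of 0.1 and -0.62 after median-ratio scaling. Without vehicle 2 it was -0.82, without vehicle 4 -0.18 and without ONX-0914 3 -0.23.

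**Figure D3:**
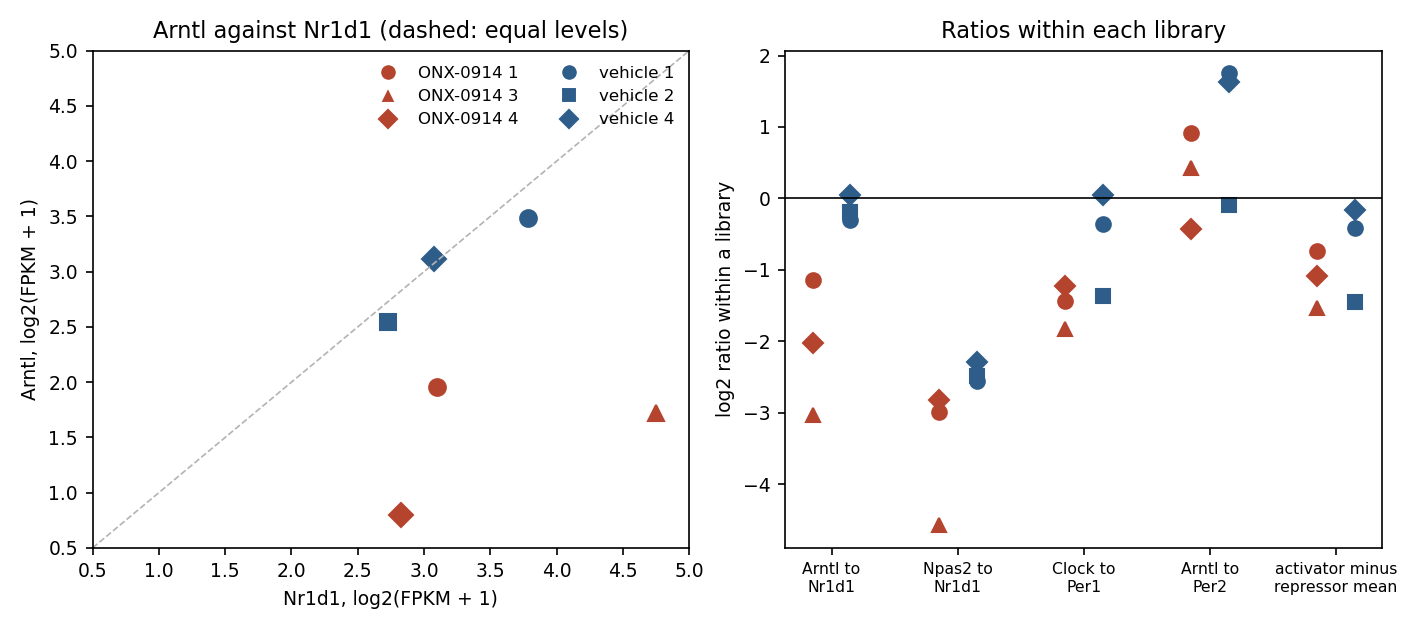
Left, Arntl against Nr1d1 in each library, both as log2(FPKM + 1), with a dashed line of equal levels. Vehicle libraries (blue) lie near the line and ONX-0914 libraries (red) below it. Right, log2 ratios within each library for 4 pairs of genes and for the mean of the activator arm minus that of the repressor arm, with ONX-0914 left of vehicle in each. The Arntl to Nr1d1 values do not overlap between the groups, while vehicle 2 (square) falls among the treated libraries in the last 3 columns.

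The clock genes also varied within the vehicle group. The SD of their log2(FPKM + 1) over the 3 vehicle libraries was 0.48 for Arntl and 0.49 for Npas2, 0.52 for Clock, 0.61 for Per2, 0.62 for Per3, 0.58 for Cry2 and 0.54 for Nr1d1. Among the 6450 tested genes with a vehicle mean of 1 to 15 FPKM the median SD was 0.18, and of the 9 clock genes tested 5 were in the top 5% of those genes (Clock, Per2, Per3, Cry2 and Nr1d1) and 6, with Arntl, in the top 10%. Vehicle 2 had the highest Per1, Per2, Per3, Cry2 and Nr1d2 and the lowest Arntl, Clock, Npas2 and Nr1d1 of the 3 vehicle libraries. Cry1, by contrast, had one of the smaller SDs, at 0.15. In the treated group the SD was largest for Nr1d1, at 1.04, and smallest for Npas2 and Per2, at 0.089 and 0.14.

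The other genes of the loop were read from lists of clock genes, whose counts stand beside the shares of all genes called lower and higher, 43.5% and 2.56% as deposited, 14.2% and 13.8% after median-ratio scaling and 11.6% and 9.61% after length correction. Rora encodes a ROR receptor, which opposes the REV-ERBs at ROREs. It was at 0.38, 0.72 and 0.11 FPKM in treated libraries 1, 3 and 4, against 1.85, 1.73 and 1.51 FPKM in vehicle 1, 2 and 4. Since it passed the filter on low values through the vehicle libraries alone, no test is given for it, and its log2 change was -0.17 after length correction. Rorb was listed at 0 in all 6 libraries. Of the D-box factors 2 of 4 fell. Hlf, a PAR bZIP activator, was at 2.16, 4.02 and 2.5 FPKM in treated libraries 1, 3 and 4, against 12.1, 11.1 and 14.0 FPKM in vehicle 1, 2 and 4. Its fall (-1.81, limma, SE 0.27, adjusted p = 0.00217) held after median-ratio scaling (-1.14, adjusted p = 0.0126) and after length correction (-0.88, adjusted p = 0.0179). Tef, of the same family, fell as deposited only (-1.07, limma adjusted p = 0.0465).

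The following genes were singled out after their values were seen, because they moved apart from their lists. Dbp, a PAR bZIP gene driven by CLOCK and BMAL1, was at 11.6, 25.5 and 86.9 FPKM in treated libraries 1, 3 and 4, against 9.14, 32.8 and 12.2 FPKM in vehicle 1, 2 and 4. ONX-0914 4, the library with the lowest Arntl, had the highest Dbp, and the gene did not pass (0.90, limma, SE 0.66, adjusted p = 0.282). Nfil3, the repressor at D-boxes, was highest in ONX-0914 3, at 65.7 FPKM, against 11.7 to 29.7 FPKM in the other 5 libraries. Ciart, a repressor of CLOCK and BMAL1, was at 0.46, 7.16 and 5.73 FPKM in treated libraries 1, 3 and 4, against 0.24, 3.07 and 2.35 FPKM in vehicle 1, 2 and 4 (0.75, limma adjusted p = 0.361).

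**Figure D4:**
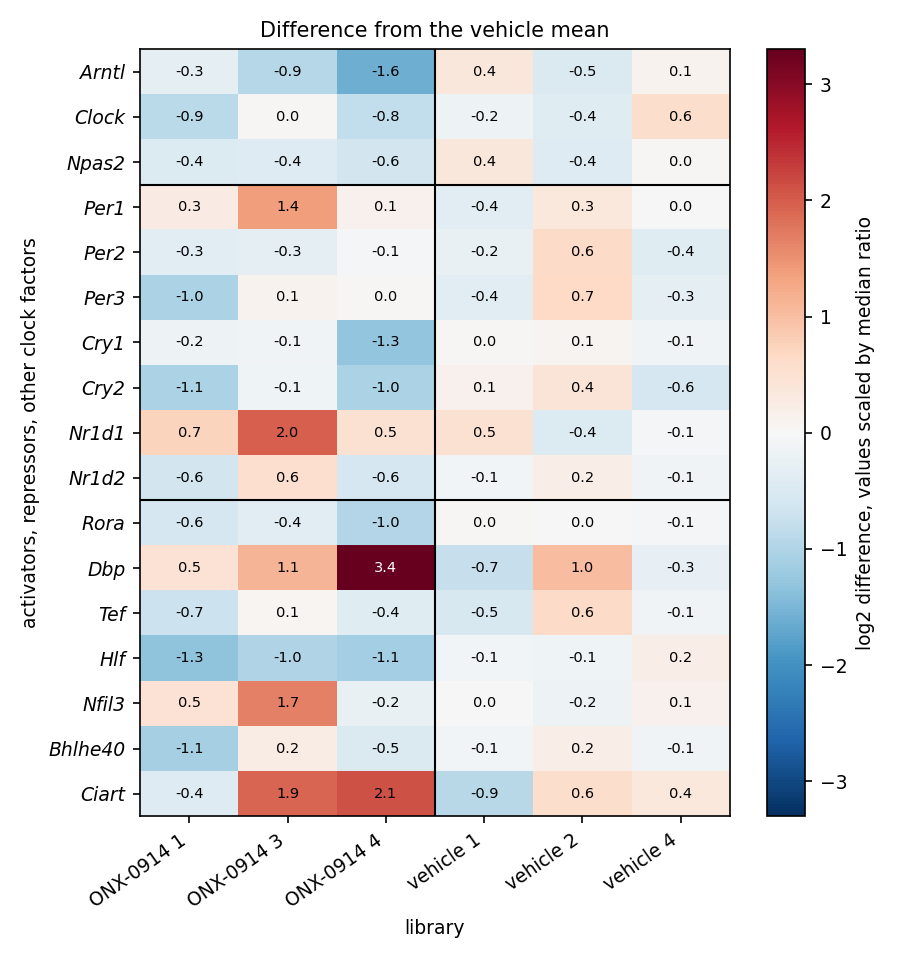
Difference of each library from the vehicle mean, as log2(scaled FPKM + 1) after scaling by median ratio, for the activators, the repressors and 7 other clock factors (rows, from top) in ONX-0914 and vehicle libraries (columns). Red is above and blue below the vehicle mean. Arntl, Npas2, Per2, Cry1, Cry2, Rora and Hlf are below it in all 3 treated libraries. Nr1d1 is highest in ONX-0914 3, at 1.97, and Dbp in ONX-0914 4, at 3.37.

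Of the DEC factors and Ciart, 1 of 2 tested fell, Bhlhe40, a repressor of E-box genes (-1.21, limma adjusted p = 0.0347), and it was at -0.45 after median-ratio scaling (adjusted p = 0.329). Of 21 tested kinases, phosphatases, ubiquitin ligases and deubiquitinases that act on clock proteins, 10 fell and none rose (5 and 2 after median-ratio scaling, 4 and 1 after length correction). Those with the lowest adjusted p were Fbxw11, a ubiquitin ligase subunit that marks PER proteins (-2.19, limma adjusted p = 0.00194), Csnk1a1, casein kinase 1 alpha (-2.10), Prkaa2, an AMPK subunit whose kinase marks cryptochromes (-1.56), and Csnk2a1, casein kinase 2 alpha (-2.02). All 4 also passed after median-ratio scaling and after length correction. Of 16 tested cofactors of the clock complexes 12 fell and none rose, and 2 fell in each of the other scalings. Crebbp, among the 12, exceeded 1 FPKM in the vehicle libraries alone, so it could hardly be called other than lower. Tbl1x, a subunit of the corepressor used by the REV-ERBs, had a log2 fold change of -2.16 (limma adjusted p = 0.00165), and Kat2b, an acetyltransferase, one of -2.14 (adjusted p = 0.00365). Both held in each scaling. Thrap3 and Nono fell by 1.07 and 1.25 as deposited and did not pass in the other scalings. The medians of these 2 lists were -0.81 as deposited, beside -0.64 for all genes, and -0.011 and -0.029 after length correction, beside 0.023 for all genes.

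Of 17 tested rhythmic liver output genes 9 fell and none rose (1 and 1 after median-ratio scaling, 1 and none after length correction). Wee1, among the 9, exceeded 1 FPKM in the vehicle libraries alone, so it could hardly be called other than lower. Their median log2 fold change stood at -1.09 as deposited, beside -0.64 for all genes, -0.30 after median-ratio scaling, beside -0.012, and -0.20 after length correction, beside 0.023. Rgs16, a regulator of G protein signalling, was at 0.22 and 3.86 FPKM and listed at 0 in treated libraries 1, 3 and 4, against 20.1, 31.5 and 20.8 FPKM in vehicle 1, 2 and 4, and passed in all 3 scalings. Nampt, the enzyme of NAD salvage, Gys2, liver glycogen synthase, and Cyp7a1, the rate-limiting enzyme of bile acid synthesis, had log2 fold changes of -1.27, -1.09 and -2.38 as deposited and passed in neither other scaling. Alas1, Por and Upp2 were not called, at -0.0025, 0.20 and -0.28.

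Markers of other liver cells differed between cell types in how they moved. Of all genes tested, 43.5% were called lower and 2.56% higher as deposited. These shares were 14.2% and 13.8% after median-ratio scaling, and 11.6% and 9.61% after length correction. All 7 endothelial markers fell as deposited, 6 after median-ratio scaling and 7 after length correction (summed 29.6 to 48.8 FPKM with ONX-0914, 142 to 153 with vehicle). Of 7 stellate cell markers 5, 4 and 2 fell in these scalings (54.4 to 117, against 244 to 311 with vehicle), and of 7 Kupffer cell markers 4, 3 and 3 (387 to 675, against 744 to 1246 with vehicle). None of these markers was at 0 in all libraries. Each sum covers all listed markers of a cell type, also those too low to be tested. For cholangiocytes 5 were summed, for T and NK cells 5 and for B and plasma cells 4. Of 7 hepatocyte markers 3 fell and 1 rose as deposited, but none fell after median-ratio scaling, where 2 rose, or after length correction, where 1 rose. Among cholangiocyte markers 1 of 4 fell as deposited and 1 rose after median-ratio scaling (72.0 to 123, against 72.8 to 77.8 with vehicle). As deposited none was called of 2 markers of T and NK cells, of which 1 rose after median-ratio scaling (6.41 to 7.08, against 3.95 to 7.87 with vehicle), of 1 marker of B and plasma cells (1.47 to 5.94, against 3.89 to 4.67 with vehicle) or of 5 neutrophil markers (181 to 4403, against 300 to 1824 with vehicle). Kdr (endothelial), Pdgfrb (stellate) and Sox9, the cholangiocyte marker that fell, exceeded 1 FPKM in the vehicle libraries alone. They passed the filter on low values that way and could hardly be called other than lower, so their calls are no support. The part of these other liver cells in the clock values was not tested.

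Over the 6 libraries, the genes whose log2(FPKM + 1) followed Arntl most closely, among 6531 with a mean of at least 5 FPKM, were Hsf2, Crlf3, Insig2, Myl12a and Hsd17b4 (Pearson r 0.991 to 0.994). Insig2, which retains SREBP in the endoplasmic reticulum, was at 91.0, 83.5 and 34.4 FPKM in treated libraries 1, 3 and 4, against 279, 118 and 233 FPKM in vehicle 1, 2 and 4, in the same order of libraries as Arntl. Nr1d1 was followed most closely by Gmps, 2010003K11Rik, 9130401M01Rik, Ngdn and Tti2 (r 0.961 to 0.981). These correlations are over 6 points that share group and library, and they are given as a description.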

How the data were processed

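Liver RNA was measured in 6 libraries by mRNA sequencing. Per the labels' protocols, RNA was extracted with TRIzol and mRNA was enriched and fragmented. Tools in the submitters' processing notes are HISAT2 2.0.1 and featureCounts 1.6.0, FastQC 0.11.5 with cutadapt 1.11, as well as edgeR, and builds are mm10 and GRCm38. The sources used here give neither the role of each tool nor the annotation. FPKM values were deposited by the authors as 1 matrix with 2 decimals, and that unit was inferred from them. Columns were matched to samples by title.

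Genes above 1 FPKM in at least 3 libraries were tested on log2(FPKM + 1), pseudocount 1, with limma 3.58.1 (R 4.3.3, trend) and Benjamini-Hochberg adjustment over all 10743. Fold changes on this scale understate those of low genes. The length trend was a loess fit (span 0.3) of the deviation of a library from the mean of vehicle over longest coding transcript length in GENCODE M21 (97.6% of tested genes have one). Relative depth is the most common ratio of low values of short transcripts to those of vehicle 1. The fit was tested on simulated data in which both groups had the spread of vehicle and no library-wide shift. In the data the median SD over tested genes was 0.39 with ONX-0914 and 0.17 with vehicle. The simulation therefore does not show how well changes are recovered here. Ratios, counts and figures used Python 3.11.15.

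The genes and lists were chosen with earlier results of these data known. All clock members are named, with up to 4 called genes per list by lowest adjusted p and the 5 genes most like Arntl and Nr1d1. The result for 1 listed gene is not reported here.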

Additional observations from a re-analysis of the deposited data

How the results depend on the processing

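Clock genes called lower numbered 4, but 1 with no filter on low values, 1 in ONX-0914 3 alone against vehicle, and 0 after median-ratio scaling, by upper quartile, quantile normalized or after length correction. They ranged from 1 to 6 with 1 library left out, with 6 reached without ONX-0914 3. Clock genes called higher were 0 throughout, except 2 in ONX-0914 3 alone. All genes called higher and lower, 275 and 4673, were 1481 and 1528 after median-ratio scaling, 1118 and 1334 quantile normalized, 1074 and 1956 by upper quartile, 1007 and 1218 after length correction and 110 and 3062 among those that changed by 1 or more on the log2 scale. With 1 library left out they ranged from 92 to 740 and from 2590 to 6514, and in ONX-0914 3 alone 2992 were lower. The activator minus repressor difference of -0.44 was -1.03 with a pseudocount of 0.1, and ranged from -0.82 to -0.18 with 1 library left out. Per1 changed sign to 0.59 after median-ratio scaling, 0.45 by upper quartile, 0.81 quantile normalized, 0.89 after length correction and 0.999 in ONX-0914 3 alone, and ranged from -0.52 to 0.28 with 1 library left out. Per2 and Per3 became 0.035 and 0.049 quantile normalized, and 0.16 and 0.19 after length correction, where Nr1d2 was 0.014. Nr1d2 was 0.13 in ONX-0914 3 alone. Nr1d1 ranged from -0.24 to 0.73 with 1 library left out. The cause was not tested.

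Numbers 1 and 4 occur in both groups, and deviations of same-numbered libraries from their group means correlated at 0.0011 and 0.13. So few pairs cannot show whether such libraries share more than a number. The fit with the number as a replicate block rests on those 4 libraries alone and leaves very little to measure the spread of each gene. Of the 10743 genes tested it called 604 higher and 5973 lower. Of the 9 clock genes tested it called 5 lower, a share near that of all genes, with Nr1d1 at -0.47. Absolute depth is unknown, and values near 0, as of Npas2, rest on few reads.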

Other observations

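Genes that respond to glucocorticoids, which also act on Per1, moved both ways. Of 10 tested, 4 fell and 3 rose as deposited, beside 43.5% and 2.56% of all genes. After median-ratio scaling 3 fell and 3 rose, beside 14.2% and 13.8% of all genes. After length correction 3 fell and 2 rose, beside 11.6% and 9.61%. Nr3c1, the glucocorticoid receptor gene, was at 0.64, 2.36 and 0.91 FPKM in treated libraries 1, 3 and 4, against 9.62, 9.65 and 7.70 FPKM in vehicle 1, 2 and 4, a log2 change of -2.18 (limma, SE 0.31, adjusted p = 0.00191), and Klf9, a transcription factor gene, was at -2.14 (adjusted p = 0.00545). Both also passed after median-ratio scaling and after length correction. Lcn2, which encodes lipocalin-2, and Mt2, a metallothionein, rose (1.76 and 2.32, limma adjusted p = 0.00261 and 0.00557), and Mt2 did not pass after length correction (adjusted p = 0.0602). Both are also acute-phase genes. Fkbp5 and Tat, chosen here after their values were seen, were high in ONX-0914 3, as Per1 and Nr1d1 were. The rest of the list did not move as one in that library. Dusp1, Mt1, Mt2 and Lcn2 were also highest there. Nr3c1, Klf9 and Sgk1 were below all vehicle libraries there, and Tsc22d3 and Zbtb16 lay within the vehicle range. Fkbp5 was at 2.95, 20.2 and 2.17 FPKM in treated libraries 1, 3 and 4, against 8.92, 9.62 and 17.6 FPKM in vehicle 1, 2 and 4, and Tat at 189, 1076 and 165 FPKM in treated libraries 1, 3 and 4, against 321, 579 and 513 FPKM in vehicle 1, 2 and 4.

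Of 8 tested immediate early genes none was called as deposited, by limma with Benjamini-Hochberg adjustment. After median-ratio scaling and after length correction 2 of the 8 rose in each, Junb and Egr1. Of all genes, 13.8% and 9.61% were called higher in those scalings. Junb was at 27.0, 86.5 and 20.6 FPKM in treated libraries 1, 3 and 4, against 21.6, 17.3 and 11.6 FPKM in vehicle 1, 2 and 4.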
